A study of Mus musculus with 2 samples.

Results

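The 10 genes described here make, bind and break down retinoic acid, and all 10 were found among the 43346 genes of the deposited tables by matching their symbols (Aldh1a1, Aldh1a2, Aldh1a3, Rdh10, Dhrs3, Cyp26a1, Cyp26b1, Cyp26c1, Crabp1 and Crabp2) to gene identifiers. The tissue was the stomach of B6NCrl mouse embryos at 14.5 days of gestation. Total RNA, 10 ng at the start and longer than 200 nt, was sequenced in 2 libraries of 1 group, replicate 1 and replicate 2. Per the labels each library came from 1 stomach of 1 pup, with no treatment or engineered allele named, with collection dates on day 15 (replicate 1) and day 17 (replicate 2) of the same month. Embryo and collection date cannot be told apart, and the labels give no second condition.

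Retinoic acid is a signalling molecule made from vitamin A. Retinol is oxidised to retinal by Rdh10, a step that Dhrs3 reverses, and retinal is oxidised irreversibly to retinoic acid by the Aldh1a enzymes. Crabp1 and Crabp2 bind retinoic acid in the cytoplasm, Cyp26 enzymes oxidise it for removal, and in the nucleus it binds receptors that sit on direct repeats in target genes. In the embryonic foregut the pathway is known for its part in patterning the organs that bud from it.

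Cyp26a1 is a textbook example of a gene that retinoic acid switches on through such a repeat, so its promoter is printed first, beside that of Cyp26c1, its neighbour on chromosome 19. The annotated genes lie 4399 bp apart on the plus strand. The windows, on GRCm38.p6, run from 250 bases before to 50 bases after the RefSeq start. They lie at chr19:37697558-37697857 for Cyp26a1 and chr19:37685430-37685729 for Cyp26c1, both on the plus strand. For Cyp26c1 the RefSeq start, 37685680, lies inside the gene as GENCODE places it, from 37685581. The window from that base on is thus within the annotated gene, and sequence before 37685430 was not searched. Capitals mark a direct repeat of receptor half-sites with 5 bases between them.
Cyp26a1: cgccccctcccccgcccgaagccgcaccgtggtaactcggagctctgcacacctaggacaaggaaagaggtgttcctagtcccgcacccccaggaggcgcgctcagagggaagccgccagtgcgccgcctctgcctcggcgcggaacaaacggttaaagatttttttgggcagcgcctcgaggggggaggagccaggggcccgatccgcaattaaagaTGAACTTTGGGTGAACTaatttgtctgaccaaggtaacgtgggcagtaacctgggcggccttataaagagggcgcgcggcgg
Cyp26c1: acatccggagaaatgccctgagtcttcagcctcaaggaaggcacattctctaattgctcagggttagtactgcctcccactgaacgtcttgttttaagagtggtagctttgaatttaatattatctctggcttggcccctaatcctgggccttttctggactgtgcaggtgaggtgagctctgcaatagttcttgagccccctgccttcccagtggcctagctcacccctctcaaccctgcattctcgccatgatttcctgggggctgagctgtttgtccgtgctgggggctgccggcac
The repeat in the Cyp26a1 window lies at chr19:37697776-37697792, from 32 to 16 bases before the RefSeq start, and reads as a direct repeat on the opposite strand. Read on that strand, it is set here with both half-sites in capitals and the spacer in lower case, beside the repeat in the window of the receptor gene Rarb, another gene known to answer to retinoic acid. The Rarb repeat lies at chr14:16575513-16575529, on the strand of the gene.
Cyp26a1 repeat: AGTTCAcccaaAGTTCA
Rarb repeat: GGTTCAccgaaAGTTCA
The half-sites searched were AGGTCA, its variant AGTTCA, the form GGGTCA and its variant GGTTCA, and pairs in the same orientation were searched on both strands with 1, 2 or 5 bases between them. Of 32851 promoter windows of this length, 32 held a pair with 5 bases between (0.0974%), 88 a pair with 2 (0.268%) and 73 a pair with 1 (0.222%). RefSeq windows were matched for 7 of the 10 genes, as 10 windows, and none was matched for Aldh1a3, Rdh10 and Crabp2. The Cyp26a1 window held a pair, and these letters are not in the other 9 windows. A match describes the sequence only.

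The libraries held 25072242 expected counts in replicate 1 and 25599910 in replicate 2. Stomach markers were present, with all 13 mesenchymal and epithelial markers at 1 TPM (a transcript abundance that divides by length and library total) or more in both libraries, and none of 4 lung markers reached it. All 6 liver markers did, summing to 96.0 TPM in replicate 1 and 92.1 TPM in replicate 2, with Apoa1, also known from the gut, the highest at 55.5 and 51.7 TPM. Among the marker and sex-linked genes looked at here, the libraries stand apart most widely at pancreas and sex-linked genes. Pancreas markers summed to 690 TPM in replicate 1 and 46.2 TPM in replicate 2, where Ptf1a and Amy2a5 had 0 counts (a limit of 3 each). The labels call the sex pooled, yet the Y-linked gene Ddx3y had 2550 counts in replicate 1 and 0 in replicate 2, while Xist had 13.5 and 32038. By these counts sex also differed between the libraries, so it cannot be told apart from embryo and collection date. Every value below is therefore given for each library.

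Of the 10 genes, 8 reached the detection threshold of 1 TPM in replicate 1 and in replicate 2, against 34.9% of all genes. By mean TPM the detected genes ran from Cyp26a1 at the low end to Dhrs3 at the high end, and the pair below the threshold, Cyp26b1 and Cyp26c1, were both breakdown enzymes. Values are deposited TPM, means are ± SD over the 2 libraries, and counting intervals are exact 95% Poisson intervals. In a whole organ, fewer cells of a type and less RNA per cell cannot be told apart.

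Of the first pair of enzymes, the reductase Dhrs3 was far above the oxidase Rdh10. Dhrs3 (ENSMUSG00000066026.10, chromosome 4, 144892827 to 144928209, plus strand in mm10) was at 107 TPM in replicate 1, from 2746 counts, and 93.2 TPM in replicate 2, from 2547 counts, a mean of 100.04 ± 9.64. It was the highest of the 10 genes in each library, at the 90.9th and 89.9th percentile of detected genes. Rdh10 (ENSMUSG00000025921.7, chromosome 1, 16105774 to 16133734, plus strand), the retinol dehydrogenase that embryos depend on, was at 24.0 TPM in replicate 1 and 20.1 TPM in replicate 2, from 1340 and 1213 counts. Dhrs3 thus had 4.46 times the TPM of Rdh10 in replicate 1 and 4.64 times in replicate 2. The values of the 2 genes do not overlap, and strand use is not stated, so antisense reads cannot be told apart from those of any gene here.

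Aldh1a2 led the enzymes that make retinoic acid. Aldh1a2 (ENSMUSG00000013584.5, chromosome 9, 71215789 to 71296243, plus strand), known as the main source of retinoic acid in the early embryo, was at 78.0 TPM in replicate 1 and 70.8 TPM in replicate 2, from 2847 and 2744 counts. Aldh1a1 (ENSMUSG00000053279.6, chromosome 19) was at 15.6 TPM in replicate 1 and 12.6 TPM in replicate 2, from 514 and 441 counts. Its only transcript in the deposited tables spans 20601961 to 20643462 on the plus strand. Aldh1a3 (ENSMUSG00000015134.10, chromosome 7, 66390890 to 66427517, minus strand), an enzyme of the developing eye and nose among other sites, was at 8.64 TPM in replicate 1 and 8.36 TPM in replicate 2, from 383 and 399 counts. The intervals of the 3 genes do not overlap in either library.

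Among the 3 Aldh1a genes described here the split was close in the 2 embryos. Aldh1a2 held 76.3% of the summed TPM in replicate 1 and 77.2% in replicate 2 (76.7% ± 0.609). Aldh1a1 held 15.3% and 13.7%, and Aldh1a3 held 8.45% and 9.11%. With Aldh1a7 added, a close paralog of Aldh1a1 at 37.9 TPM in replicate 1 and 32.6 TPM in replicate 2, Aldh1a2 would hold 55.7% and 56.9% and Aldh1a7 27.0% and 26.2%. These shares are taken within a library, so no scaling between libraries enters them. They are shares of RNA, and whether Aldh1a7 acts on retinal was not examined.

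Both cytoplasmic binding proteins were present, with Crabp1 above Crabp2. Crabp1 (ENSMUSG00000032291.8, chromosome 9, 54764748 to 54773110, plus strand) was at 75.7 TPM in replicate 1, from 897 counts, and 93.0 TPM in replicate 2, from 1170 counts. Crabp2 (ENSMUSG00000004885.5, chromosome 3, 87948666 to 87953376, plus strand), known to carry retinoic acid to its receptors, was at 23.4 TPM in replicate 1 and 32.5 TPM in replicate 2, from 327 and 482 counts. Both genes were higher in replicate 2, and their shares hardly moved, Crabp1 holding 76.4% of the pair in replicate 1 and 74.1% in replicate 2.

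Of the 3 breakdown enzymes, 1 was detected. Cyp26a1 (ENSMUSG00000024987.5, chromosome 19, 37697798 to 37701536, plus strand), whose promoter with the repeat is printed above, was at 9.14 TPM in replicate 1, from 258 counts, and 5.88 TPM in replicate 2, from 176 counts. Cyp26b1 (ENSMUSG00000063415.8, chromosome 6, 84571414 to 84593908, minus strand), a related enzyme with its own sites of expression in the embryo, was at 0.770 TPM in replicate 1 (60 counts, interval 45.8 to 77.2) and 0.600 TPM in replicate 2 (49 counts, 36.3 to 64.8). Its transcripts were thus present but below the detection threshold. Cyp26c1 (ENSMUSG00000062432.4, chromosome 19, 37685581 to 37693398, plus strand) had 3 counts in replicate 1 and 1 in replicate 2, 0.110 and 0.030 TPM, at or near the limit of what this depth can show. Cyp26a1 held 91.2% of the family's TPM in replicate 1 and 90.3% in replicate 2.

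The summed TPM of the synthesis enzymes Aldh1a1 to Aldh1a3 was 10.2 times that of the Cyp26 enzymes in replicate 1 and 14.1 times in replicate 2. RNA levels are compared here, not enzyme activity.

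**Figure D1:**
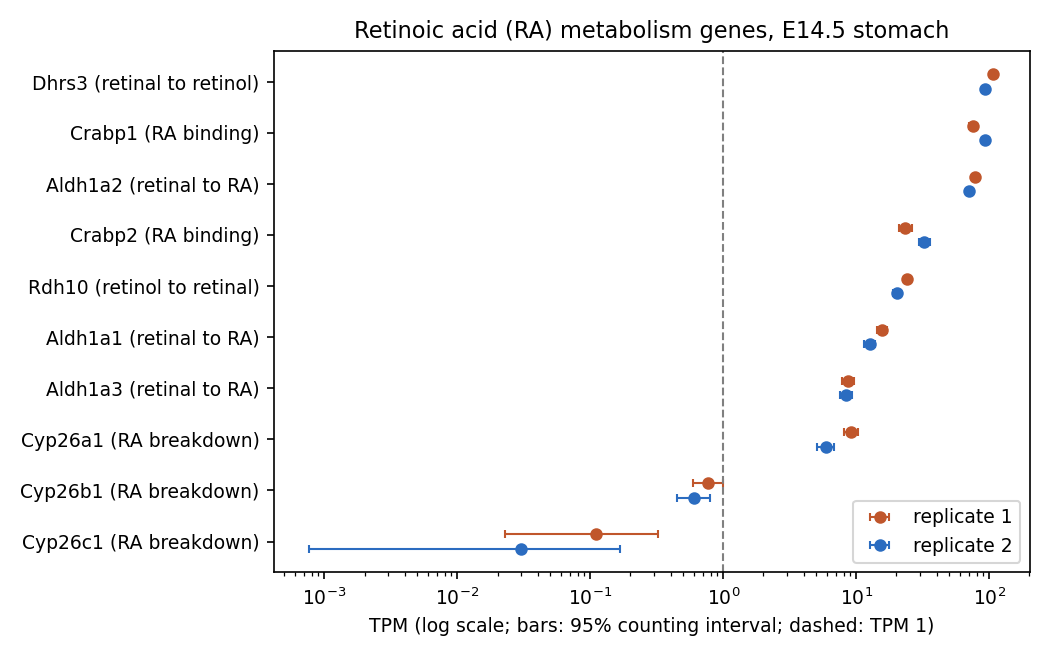
TPM of each gene (log axis) in replicate 1 and replicate 2, with 95% counting intervals as bars and the detection threshold of 1 TPM as a dashed line; genes run from the highest to the lowest mean. Dhrs3, Crabp1 and Aldh1a2 stand above the others in both libraries, the lowest of their values being 70.8 TPM, and Cyp26b1 and Cyp26c1 lie below 1 TPM.

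Ordered by mean TPM, the genes ran Dhrs3, Crabp1, Aldh1a2, Crabp2, Rdh10, Aldh1a1, Aldh1a3, Cyp26a1, Cyp26b1 and Cyp26c1. The order was that of replicate 2. In replicate 1 Aldh1a2 stood above Crabp1, Rdh10 above Crabp2 and Cyp26a1 above Aldh1a3, and these 3 neighbouring pairs are the ones whose values overlap between the libraries. In replicate 2 Dhrs3 and Crabp1 were also level, with counting intervals of 89.6 to 96.9 TPM and 87.7 to 98.5 TPM.

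**Figure D2:**
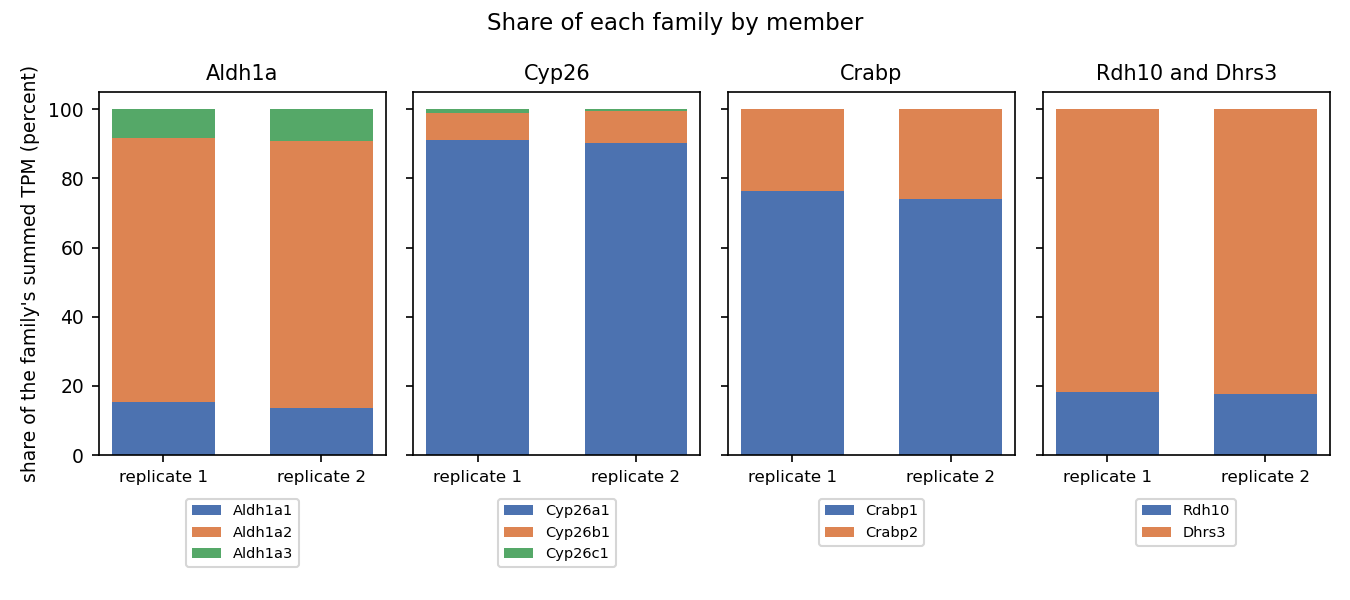
Share of the summed TPM (percent, axis from 0) of the genes shown that each gene held, without Aldh1a7, with replicate 1 left of replicate 2 for Aldh1a, Cyp26, Crabp and the pair of Rdh10 and Dhrs3. Shares are close in the 2 libraries, for example 76.3% and 77.2% for Aldh1a2.

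The transcript tables show what lies behind these gene levels. Of the 10 genes, 5 had 1 transcript in the annotation and 5 had several. Dhrs3 was the most divided, with 7 transcripts. The protein-coding transcript Dhrs3-207 (ENSMUST00000171001.3), from the first start at 144892827, took 29.0% of the gene's TPM in replicate 1 and 37.1% in replicate 2. Dhrs3-201 (ENSMUST00000084184.6), which GENCODE M21 annotates as a target of nonsense-mediated decay, took 29.6% and 24.9%. Dhrs3-206 (ENSMUST00000154208.3), also protein coding and starting at 144893077, took 25.1% and 24.7%. Dhrs3-201 led narrowly in replicate 1, at 31.6 TPM beside 31.0 TPM for Dhrs3-207, and Dhrs3-207 led in replicate 2. No single transcript thus made up the bulk of this gene.

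Counting protein-coding transcripts alone, a choice made after seeing the data, lowered Dhrs3 to 70.4 TPM in replicate 1 and 64.4 TPM in replicate 2. Dhrs3 was then below Aldh1a2 and Crabp1 in both libraries, and 3.28 and 3.44 times as high as Rdh10. First place in the order thus depends on whether those transcripts count.

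**Figure D3:**
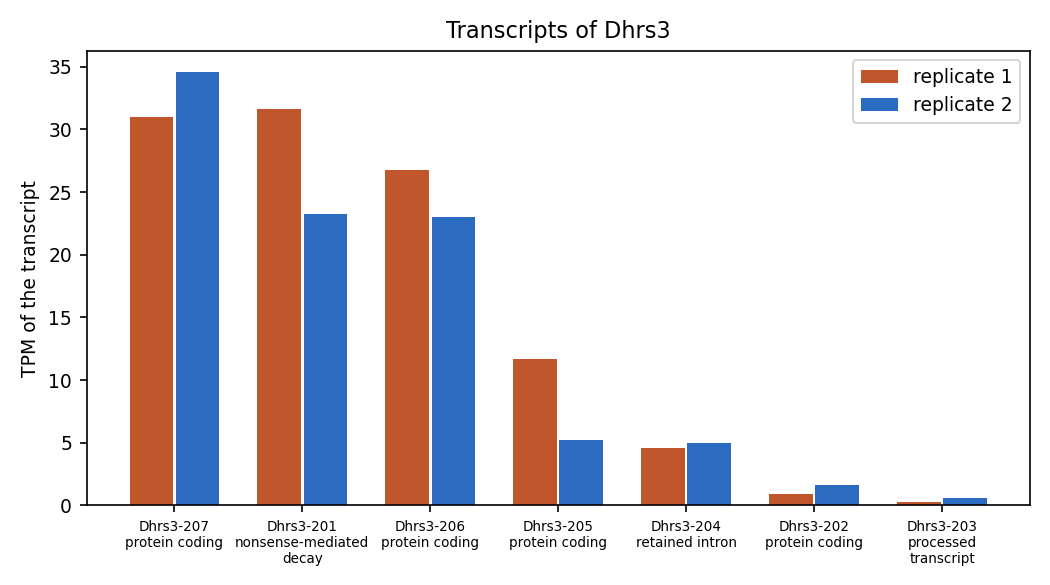
TPM of each of the 7 Dhrs3 transcripts (axis from 0) in replicate 1, left, and replicate 2, right, with the biotype of GENCODE M21 under each name. Dhrs3-201, Dhrs3-206 and Dhrs3-207 carry most of the signal, and Dhrs3-201, annotated as a target of nonsense-mediated decay, is at 31.6 TPM in replicate 1 and 23.3 TPM in replicate 2.

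The other divided genes were dominated by 1 transcript or could not be resolved. Rdh10-201 (ENSMUST00000027053.7), the coding transcript, took 89.4% of Rdh10 in replicate 1 and 93.1% in replicate 2, the rest going to a retained intron. Aldh1a3-201 (ENSMUST00000015278.9) took 65.5% and 66.7% of Aldh1a3. Crabp2-201 (ENSMUST00000005019.5) took 99.4% and 99.1% of Crabp2. For Cyp26b1, the deposited estimate gave Cyp26b1-201 63.8% in replicate 1 and 0% in replicate 2, while the deposited posterior mean gave 52.6% and 44.2%. With 60 and 49 counts the split between its 2 coding transcripts is not resolved.

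Between the embryos, Cyp26a1 was higher in replicate 1 and Crabp1 and Crabp2 were higher in replicate 2, and the other 5 genes with enough counts lay within the range of most genes. Ratios are of replicate 1 over replicate 2, from expected counts with TMM scaling (an edgeR method that centres the ratio of the typical gene), and with 1 library a side there is no p-value. Of the 10 genes, 8 averaged at least 100 counts over the libraries. None of the 8 was over 2-fold apart, against 0.298% of the 12761 genes past that filter, a background so low that a count of 0 says little about 8 genes. None was over 1.5-fold apart, against 1.25%, but Cyp26a1 was with spike-in scaling (4.38% of genes) and as a TPM ratio (2.12% of genes), 2 alternatives to the TMM scaling. With the filter at a mean count of 10, which adds Cyp26b1, still none of 9 was over 2-fold apart, against 3.6% of 17510 genes. Of the 8, 5 were higher in replicate 1, against 51.9% of genes, and 3 were higher in replicate 2. Their median log2 ratio was 0.10, against 0.01 over all genes past the filter.

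The widest differences were those of Cyp26a1, Crabp2 and Crabp1, in opposite directions. Cyp26a1 was 1.49-fold higher in replicate 1, a log2 ratio of 0.57 (counting interval 0.29 to 0.86). Crabp2 was 1.45-fold higher in replicate 2, a log2 ratio of -0.54 (-0.74 to -0.33). Crabp1 was 1.28-fold higher in replicate 2, a log2 ratio of -0.36 (-0.49 to -0.23). These 3 of 8 lay outside the central 95% of genes, -0.36 to 0.39, where 5% of genes lie by construction, Crabp1 at its very edge. The counting interval of each of the 3 reached inside that range, which pools genes of all depths past the filter. As a TPM ratio Crabp1 was at -0.30, inside the central range of -0.35 to 0.50 on that scale, which leaves 2 of 8 outside. The sign of all 3 was the same with DESeq2 size factors, spike-in scaling and TPM ratios. With spike-in scaling the log2 ratios were 0.84 for Cyp26a1, -0.27 for Crabp2 and -0.09 for Crabp1. No counting interval was computed on that scale, so the small value of Crabp1 leaves its sign there uncertain.

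The remaining 5 genes lay inside that range. Aldh1a1 had a log2 ratio of 0.24, Rdh10 0.17, Dhrs3 0.13 and Aldh1a2 0.08. Aldh1a3 had -0.04, and its sign turned with spike-in scaling (0.23) and with the TPM ratio (0.05). The counting interval included 0 for Aldh1a2 and Aldh1a3 and not for the other 6 genes. Spike-in scaling moved the median of all genes by 0.27, so every ratio here is relative to the typical gene.

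**Figure D4:**
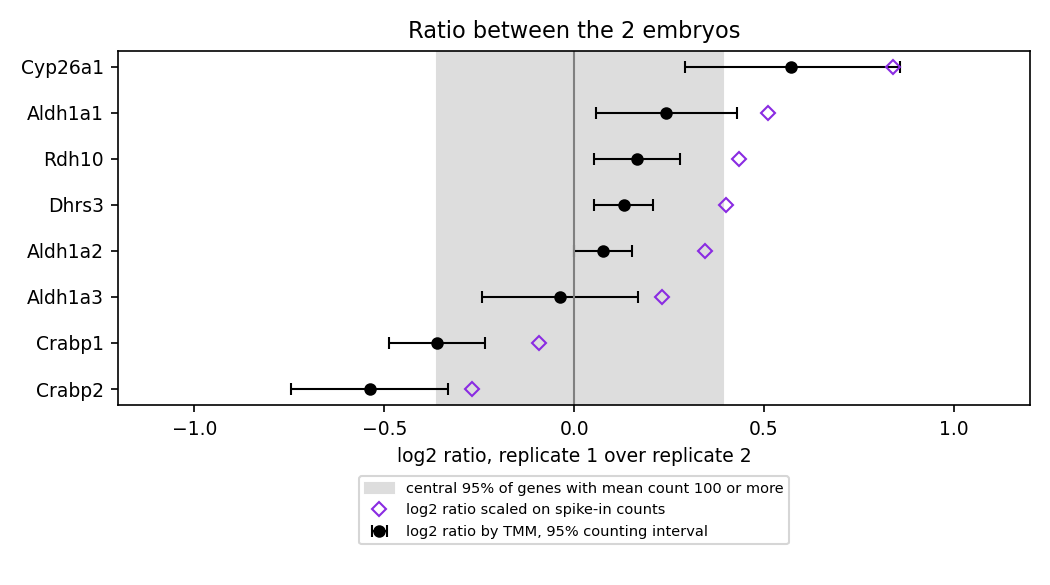
Log2 ratio of replicate 1 over replicate 2 for the 8 genes that averaged at least 100 counts, with 95% counting intervals (bars), the same ratio scaled on spike-in counts (diamonds) and the central 95% of 12761 genes (grey). Cyp26a1 lies right of the grey band at 0.57, and Crabp2 left of it at -0.54.

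Markers of other cell types are given beside these ratios. The 7 pancreas markers averaging at least 100 counts were all higher in replicate 1, from Pdx1 with 154 and 103 counts to the lipase-related gene Pnliprp1 with 4774 and 1. All 10 markers of that list were detected in replicate 1 and 5 in replicate 2. The 6 mesothelial markers, of the cell layer that coats the organ, were also all higher in replicate 1. Their median log2 ratio was 0.24, and all 6 were detected in both libraries. The lowest ratio, 0.06 for Upk1b, had a counting interval that included 0 (-0.13 to 0.25). Their levels summed to 440 TPM in replicate 1 and 369 TPM in replicate 2. Most of these sums was Krt19 alone, at 343 and 290 TPM, with Upk3b next at 30.9 and 26.0 TPM. In a whole organ, Krt19 RNA of this layer and of the epithelium cannot be told apart. The sums thus do not measure this layer alone. Of the 4 stomach mesenchyme markers past the filter, 3 were higher in replicate 2, and the list summed to 617 TPM in replicate 1 and 632 TPM in replicate 2. Stomach epithelium markers were higher in replicate 1 for 7 of 8, and endothelial markers for 5 of 5, at medians of 0.11 and 0.09 on the log2 scale. Smooth muscle markers were higher in replicate 1 for 4 of 6 (median 0.05). Neural crest and enteric neuron markers were so for 2 of 6 (median -0.03). Of the liver markers, Alb was counted 44 times in replicate 1 and 122 times in replicate 2, for a log2 ratio of -1.44 (-1.98 to -0.94), and Afp had 161 and 238, a log2 ratio of -0.54 (-0.84 to -0.25). Both were thus higher in replicate 2, though Alb averaged below the 100 counts of the filter. Of the 4 liver markers past it, 2 were higher in replicate 1, Apoa1 (log2 ratio 0.03) and Ttr (0.21). Hnf4a (-0.13) was higher in replicate 2, and Serpina1a (0.72), also below the filter, in replicate 1. The part of these cells in the ratios of Cyp26a1, Crabp1 and Crabp2 was not tested.

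The other pathway lists ran from 0% (visual cycle) to 100% (receptors and cofactors) of their genes detected, against 34.9% of all genes. Of 12 genes of retinoid supply and esters, 9 were detected in both libraries. Among the highest were Fabp5 (397 TPM in replicate 1 and 333 TPM in replicate 2), a fatty acid binding protein that also binds retinoic acid, and the acyltransferase Dgat1 (34.3 and 34.4 TPM). Lrat, the main enzyme that stores retinol as esters, was not detected, at 0.330 TPM in replicate 1 and 0.270 TPM in replicate 2 from 29 and 25 counts.

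Other oxidoreductases were mixed, with 47.1% of those that act on retinol or retinal detected, against 34.9% of all genes. Of 17 that act on retinol or retinal, 8 were detected, led by the alcohol dehydrogenase Adh5 (151 TPM in replicate 1 and 136 TPM in replicate 2), Rdh14 (33.4 and 33.9 TPM) and Rdh13 (24.1 and 25.4 TPM), and 4 were at 0 counts throughout (a count of 0 leaves room for 3). Of 4 other oxidases, 3 were detected, the cytochromes Cyp2s1 (25.9 and 23.6 TPM) and Cyp1b1 (8.01 and 5.97 TPM) and the mitochondrial aldehyde dehydrogenase Aldh1b1 (9.52 and 3.59 TPM). Aldh1b1, with 353 counts in replicate 1 and 117 in replicate 2, had a log2 ratio of 1.61 (1.31 to 1.93) and was the only gene of the 6 other lists averaging at least 100 counts to lie over 2-fold apart. It was higher in the library with the higher pancreas markers, whose part in it was not tested.

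Receptors and targets were detected widely. All 13 receptors and cofactors were detected, led by the corepressor Ncor1 (111 TPM in replicate 1 and 92.6 TPM in replicate 2) and the receptors Rara (43.1 and 39.6 TPM) and Rarb (43.1 and 39.2 TPM). Rarb carries the repeat printed beside that of Cyp26a1. Of 15 genes known as retinoic acid targets in some tissue, 12 were detected, led by Rarres2 (61.8 and 59.7 TPM), the transglutaminase Tgm2 (48.0 and 41.3 TPM) and Rarb. Stra8, a germ cell gene, was at 0 counts in replicate 1 and in replicate 2 (a limit of 3 each). None of the 7 visual cycle genes, which recycle retinal in the eye, was detected, the highest being Abca4 (0.980 TPM in replicate 1 and 0.540 TPM in replicate 2) and Rlbp1 (0.210 and 0.0300 TPM).

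**Figure D5:**
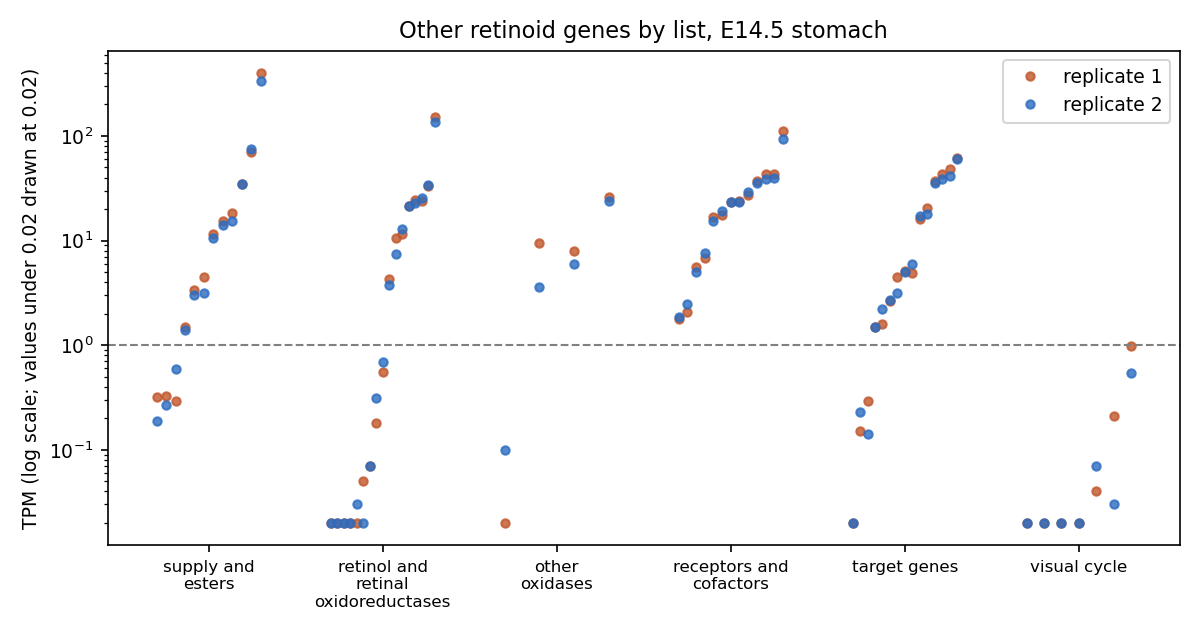
TPM (log axis, values under 0.02 drawn at 0.02) of each gene of the 6 other lists in replicate 1 and replicate 2, ordered by mean level within a list, with the detection threshold of 1 TPM as a dashed line. All 13 receptors and cofactors lie above the line and all 7 visual cycle genes below it.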

How the data were processed

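The authors deposited gene and transcript tables of expected counts (estimated counts), TPM and transcript percent of gene, on mm10 and GENCODE M4, per the file headers and deposited notes. Aligner, counter and strand setting: not given in the sources used here. Deposited TPM totals include spike-ins (12.1% of TPM in replicate 1 and 14.2% in replicate 2). The 26248 numbered entries that name no gene, 6.17e-05% and 9.77e-05% of counts, were left out.

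Names, positions and transcript types came from GENCODE M21, matched for 42462 of 43346 genes. Ratios used unrounded expected counts with 0.5 added, scaled by TMM (edgeR 4.0.16, R 4.3.3), over genes averaging at least 100 counts. Intervals (scipy 1.17.1) are exact Poisson for counts and exact binomial for ratios, at 95%, and cover counting error only. The ratio step was tested on simulated data. With 1 group of 2 libraries no test was run. Alternatives were DESeq2 1.42.0 size factors, spike-in scaling, other thresholds, posterior means and leaving out a library.

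Named genes were the 10 pathway genes and up to 3 of the highest of each other list, Lrat, Stra8, Aldh1a7 and the sex-linked and marker genes being named after their values were seen. The genes and lists were chosen with earlier results of these data known. Some genes that this rule names are not reported here.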

Additional observations from a re-analysis of the deposited data

How the results depend on the processing

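Of the 10 genes, 4 kept their place in the order of levels without replicate 2 and 10 without replicate 1. Without a count filter, 1 gene was over 2-fold apart instead of 0: Cyp26c1, with 3 counts in replicate 1 and 1 in replicate 2, a log2 ratio with a counting interval of -2.03 to 7.32. Protein-coding transcripts alone left 7 of 10 in place. Detection gave 9 genes at 0.5 TPM and 8 at 5 TPM, and 6 in place of 5 genes were higher in replicate 1 with spike-in scaling or TPM ratios, Aldh1a3 changing sign. With spike-in scaling or TPM ratios 1 gene, Cyp26a1, was over 1.5-fold apart instead of 0, and with TPM ratios 2 genes instead of 3 lay outside the central 95%, both chosen after seeing the data. The leading gene of each of 4 families was the same, but shares of expected counts (not corrected for length) gave Cyp26b1 20.2% in place of 8.45% of Cyp26 and Rdh10 a mean of 32.5% of its pair, in place of 18.3% in replicate 1 and 17.7% in replicate 2 by TPM. Depth limits Cyp26b1 and Cyp26c1. No paired analysis was possible because there is 1 group.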

Other observations

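Aldh1a7, a close paralog of Aldh1a1 at 20692953 to 20727562 on the minus strand of chromosome 19, was named after its values were seen. It was at 37.9 TPM in replicate 1 and 32.6 TPM in replicate 2, from 1255 and 1149 expected counts, above Aldh1a1 at 15.6 TPM and 12.6 TPM. Reads of near-identical copies can be split by the counting, which bears on both levels. For Aldh1a1 the deposited posterior SD of the count was small, at 0.140 beside 514 counts in replicate 1 and 0.0800 beside 441 in replicate 2. That of Aldh1a7 is not given here.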
